A study of Mus musculus with 4 samples.

Results

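Genes best known from T cells were followed in the cells of a transplanted mouse tumour and in the immune cells around it, 7 of the 32285 genes in the files. They are Tcf7, Lef1, Lat, Skap1, Lck, Ctla4 and Il7r. The members had been selected on earlier values of these same data, namely on UMIs of T-lineage genes seen in keratin-positive tumour cells, so the levels of each gene in tumour cells against T cells and other immune cells are given as a description, with no test. The 4 libraries came from Swiss albino mice that had received Dalton's Lymphoma Ascites (DLA) cells, a transplantable mouse line that the labels call lymphoma, by intraperitoneal injection. Control 1 and Control 2 carried the tumour without SP11, as untreated animals by the labels and as vehicle controls by the study's supplement. Treated 1 and Treated 2 carried the same tumour and were given SP11, an inhibitor of the chaperone HSP90, by mouth at 30 mg/kg for 17 days. The age and sex of the mice, and whether a library holds 1 animal or several, are not given in the sources used here.

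In a T cell, contact of the T cell receptor with antigen activates the kinase Lck, which phosphorylates the CD3 chains and leads to phosphorylation of the membrane adaptor Lat, the platform on which the signalling complex is built. Skap1 is an adaptor that links this signal to integrin adhesion, Ctla4 is an inhibitory receptor that competes for the ligands of CD28, and Il7r is the receptor chain through which naive and memory T cells receive the survival signal of interleukin 7. Tcf7 (TCF-1) and Lef1 are transcription factors of the TCF/LEF family, which bind the same short DNA core, take up beta-catenin and set up T cell identity in the thymus.

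Barcodes, each standing for 1 captured droplet, were classed by the UMIs (unique molecular identifiers, 1 per counted RNA molecule) of a few marker genes. Of the kept barcodes, 845 and 528 in the controls (Control 1 first, as in every row of values from here on) and 1256 and 582 in the treated libraries had at least 5 UMIs of the keratins Krt8 and Krt18 and are called keratin-positive tumour cells. Barcodes with at least 2 UMIs of the 6 receptor genes Cd3d, Cd3e, Cd3g, Trac, Trbc1 and Trbc2, and at most 2 keratin UMIs, are called T cells. They numbered 10, 1, 22 and 88 in the same order, so the controls held 11 such cells in all. Other immune cells, gated by B cell, macrophage, neutrophil or dendritic genes, numbered 33, 18, 417 and 348. The label was checked against the markers. The 4 epithelial genes Epcam, Krt7, Krt19 and Dsp were each at 10 CPM or more in the keratin-positive cells of both controls, whereas all 6 T receptor genes stayed under 1 CPM there, so the label lymphoma was not borne out by T receptor genes, and the cells are named here by their keratins only. The B cell genes Cd79a, Cd79b and Ms4a1 together were at 0.726 and 1.37 CPM in these cells of the controls.

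The gene bodies lie on GRCm38 (mm10) as annotated by GENCODE M21. Tcf7 is on the minus strand at chr11:52252371-52283014, Lat on the minus strand at chr7:126363824-126369570, Ctla4 on the plus strand at chr1:60887000-60915832 and Lck on the minus strand at chr4:129548344-129573641. Lef1 is on the plus strand at chr3:131110471-131224356 and Il7r on the minus strand at chr15:9505788-9530176. Skap1 spans chr11:96464593-96759130 on the plus strand, a body of 294538 bases of which 2.53% is exonic, so its count depends more than that of Lat, with 48.1% exonic, on whether intronic reads were counted, a setting that is not given in the sources used here. A lincRNA that is not among the files' genes, Gm26551, overlaps Tcf7 on the same strand over 17144 bases, so its RNA could be counted for Tcf7. The antisense partners that the files do list, A630014C17Rik for Tcf7 and Gm43352 for Lef1, reached at most 0.163 CPM in keratin-positive cells.

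Promoters are shown for 3 genes because these set side by side 2 genes that were above 1 CPM in tumour cells, Lat and Ctla4, and 1 that was below it, Lck. Each runs 5′ to 3′ on the gene's strand from 250 bases before to 50 bases after an annotated start (RefSeq, GRCm38.p6), and the capitals mark the TCF/LEF core CAAAG or, on the other strand, CTTTG, which the proteins of Tcf7 and Lef1 bind. The Lat sequence is chr7:126369519-126369818, that of Ctla4 is chr1:60908775-60909074, and that of Lck is chr4:129558323-129558622, at the downstream of its pair of starts, known as the proximal promoter of thymocytes, which lies 15269 bases from the other.
Lat: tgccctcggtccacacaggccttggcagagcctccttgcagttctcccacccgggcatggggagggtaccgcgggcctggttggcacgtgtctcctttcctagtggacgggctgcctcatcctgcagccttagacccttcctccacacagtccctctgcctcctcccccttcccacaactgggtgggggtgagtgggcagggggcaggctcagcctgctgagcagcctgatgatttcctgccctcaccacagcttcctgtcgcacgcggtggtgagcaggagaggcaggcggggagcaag
Ctla4: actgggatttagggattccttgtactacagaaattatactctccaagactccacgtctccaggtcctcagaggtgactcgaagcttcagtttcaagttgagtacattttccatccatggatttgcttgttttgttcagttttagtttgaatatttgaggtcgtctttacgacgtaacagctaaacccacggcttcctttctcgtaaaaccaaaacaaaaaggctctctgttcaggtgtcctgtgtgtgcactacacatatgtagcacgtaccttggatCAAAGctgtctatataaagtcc
Lck: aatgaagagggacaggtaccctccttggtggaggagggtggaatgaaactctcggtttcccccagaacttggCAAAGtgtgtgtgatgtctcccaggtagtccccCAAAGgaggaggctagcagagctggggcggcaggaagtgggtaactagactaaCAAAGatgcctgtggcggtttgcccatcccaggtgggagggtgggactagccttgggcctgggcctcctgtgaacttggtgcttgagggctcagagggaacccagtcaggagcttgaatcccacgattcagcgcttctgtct
The Lck window held 3 copies of the core and that at its other start 0, the Ctla4 window 1 and the Lat window 0, and at least 1 copy stood in 53.9% of 32851 promoters of this length. The GC content was 65.7% for Lat, 42% for Ctla4 and 57.3% for Lck, beside a median of 52.7% over all promoters. The number of CpG sites was 10, 8 and 5, beside a median of 7. At the first start of Tcf7, the promoter had a GC content of 76.3% with 45 CpG sites and 0 copies of the core, and that of Il7r had 45.7%, 1 CpG site and 0 copies. A match is a run of letters, not a bound site, and 3′ counts do not tell which start a transcript came from.

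Of the 7 genes, 4 were at 1 CPM or more in keratin-positive tumour cells of every library, and these are Tcf7, Lat, Skap1 and Ctla4. This split was made after the values were seen. The other 3, Lck, Lef1 and Il7r, lay under 1 CPM in the tumour cells of all 4 libraries. At this cut, the name of a T-lineage gene found in tumour cells was not borne out for them. Lck was still present there, with 5 and 6 UMIs in the controls, against 1 and 1 for Lef1 and 0 for Il7r. Levels are given as CPM, counts per 1e+06 UMIs of the class in a library, and they are compared within a gene and not between genes.

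Tcf7 gave 121 and 117 UMIs in the keratin-positive cells of the controls and 160 and 171 in those of the treated libraries. Scaled to all UMIs of the class, these were 12.5, 12.3, 13.02 and 14.1 CPM, an almost flat row in which the highest was 1.14 times the lowest. The UMIs were spread over many cells, 110 barcodes in Control 1 and 146 in Treated 2, with at most 4 UMIs in any 1 barcode. In T cells, Tcf7 had 0 UMIs in both controls, 1 in Treated 1 (48.4 CPM) and 18 in Treated 2 (180 CPM). Other immune cells showed 0 UMIs in both controls, 3 in Treated 1 (6.36 CPM) and 2 in Treated 2 (2.98 CPM).

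Lef1, the close relative of Tcf7, had 1 UMI in the tumour cells of each control, 7 in Treated 1 and 6 in Treated 2. The levels were 0.104, 0.106, 0.570 and 0.495 CPM. In T cells the gene stood at 280 CPM in Control 1 (2 UMIs), 0 in the single T cell of Control 2, 291 CPM in Treated 1 (6 UMIs) and 410 CPM in Treated 2 (41 UMIs), and in other immune cells it had 0 UMIs in every library. Of all Tcf7 UMIs of kept barcodes, 95.2% were in keratin-positive cells, with 88.6% to 100% by library. For Lef1 the share was 21.4%, mostly set by Treated 2 with its many T cells (11.5%), and it was 33.3% of 3 UMIs in Control 1, 100% of 1 in Control 2 and 50% of 14 in Treated 1.

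Lat, the adaptor, gave 200, 208, 300 and 346 UMIs in the keratin-positive cells of the 4 libraries. These were 20.7, 21.9, 24.4 and 28.5 CPM. Both treated libraries were above both controls, by an amount tested below. T cells held 420 CPM in Control 1 (3 UMIs), 339 in Treated 1 (7 UMIs) and 450 in Treated 2 (45 UMIs), and other immune cells at most 8.48 CPM.

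Skap1 was the member with the most UMIs in tumour cells, with 590 and 617 in control mice against 904 and 1076 after SP11. The levels were 61.2, 65.1, 73.6 and 88.7 CPM, again with both treated libraries above both controls. At least 1 Skap1 UMI was found in 46.5% of the tumour cells of Control 1 (95% exact Clopper-Pearson interval 43.1% to 49.9%) and in 76.3% of those of Treated 2, whose cells were deeper, with a median of 19843 UMIs against 10935. In T cells the gene had 0 UMIs in Control 1 and 1 UMI in the single T cell of Control 2, and was at 533 CPM in Treated 1 (11 UMIs) and 889 in Treated 2 (89 UMIs). Other immune cells held 0, 20.2, 4.24 and 11.9 CPM, on 11 UMIs in all.

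Lck, the kinase that starts receptor signalling, gave 5, 6, 12 and 5 UMIs in tumour cells, or 0.518, 0.633, 0.977 and 0.412 CPM. In T cells it stood at 420 CPM in Control 1 (3 UMIs), 194 in Treated 1 (4 UMIs) and 410 in Treated 2 (41 UMIs). The kinase was therefore under 1 CPM in the cells in which the adaptors Lat and Skap1 were above it. In tumour cells with 0 UMIs of the T receptor genes, 4, 6, 7 and 3 Lck UMIs remained in library order.

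Ctla4, the inhibitory receptor, gave 34, 49, 66 and 43 UMIs in tumour cells, or 3.52, 5.17, 5.37 and 3.54 CPM. Control 1 and Treated 2 were the low libraries, so the groups overlapped. T cells were at 280 CPM in Control 1 (2 UMIs), 96.9 in Treated 1 (2 UMIs) and 160 in Treated 2 (16 UMIs). Other immune cells were at 18.4 CPM in Control 1, on 1 UMI, and at 8.48 and 2.98 in the treated libraries.

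Il7r had 0 UMIs in the tumour cells of both controls, which allows up to 0.311 CPM in Control 1, and 9 UMIs in each treated library, or 0.732 and 0.742 CPM. The level in the treated tumours was 4.70 times that of 3 counts over both controls. This ratio leaves out the counting error of the treated UMIs and the spread between libraries, so it is not a least increase. The same ratio was 1.91, on 5 and 2 treated UMIs, in barcodes with 0 UMIs of the T receptor genes. It was 1.55, on 4 and 1, without barcodes past an immune gate. T receptor and other immune UMIs were also higher in the treated tumour cells, with the values given further on, and their part in the Il7r level was not tested beyond these subsets. The receptor also marked other cells, with 9 UMIs in 6 macrophage-gated barcodes of Control 1 (172 CPM), 0 UMIs in 17 such barcodes of Control 2, 5 UMIs in Treated 1 (18.3 CPM) and 11 in Treated 2 (34.6 CPM). T cells were at 280 CPM in Control 1 (2 UMIs), 96.9 in Treated 1 (2 UMIs) and 290 CPM in Treated 2 (29 UMIs).

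**Figure D1:**
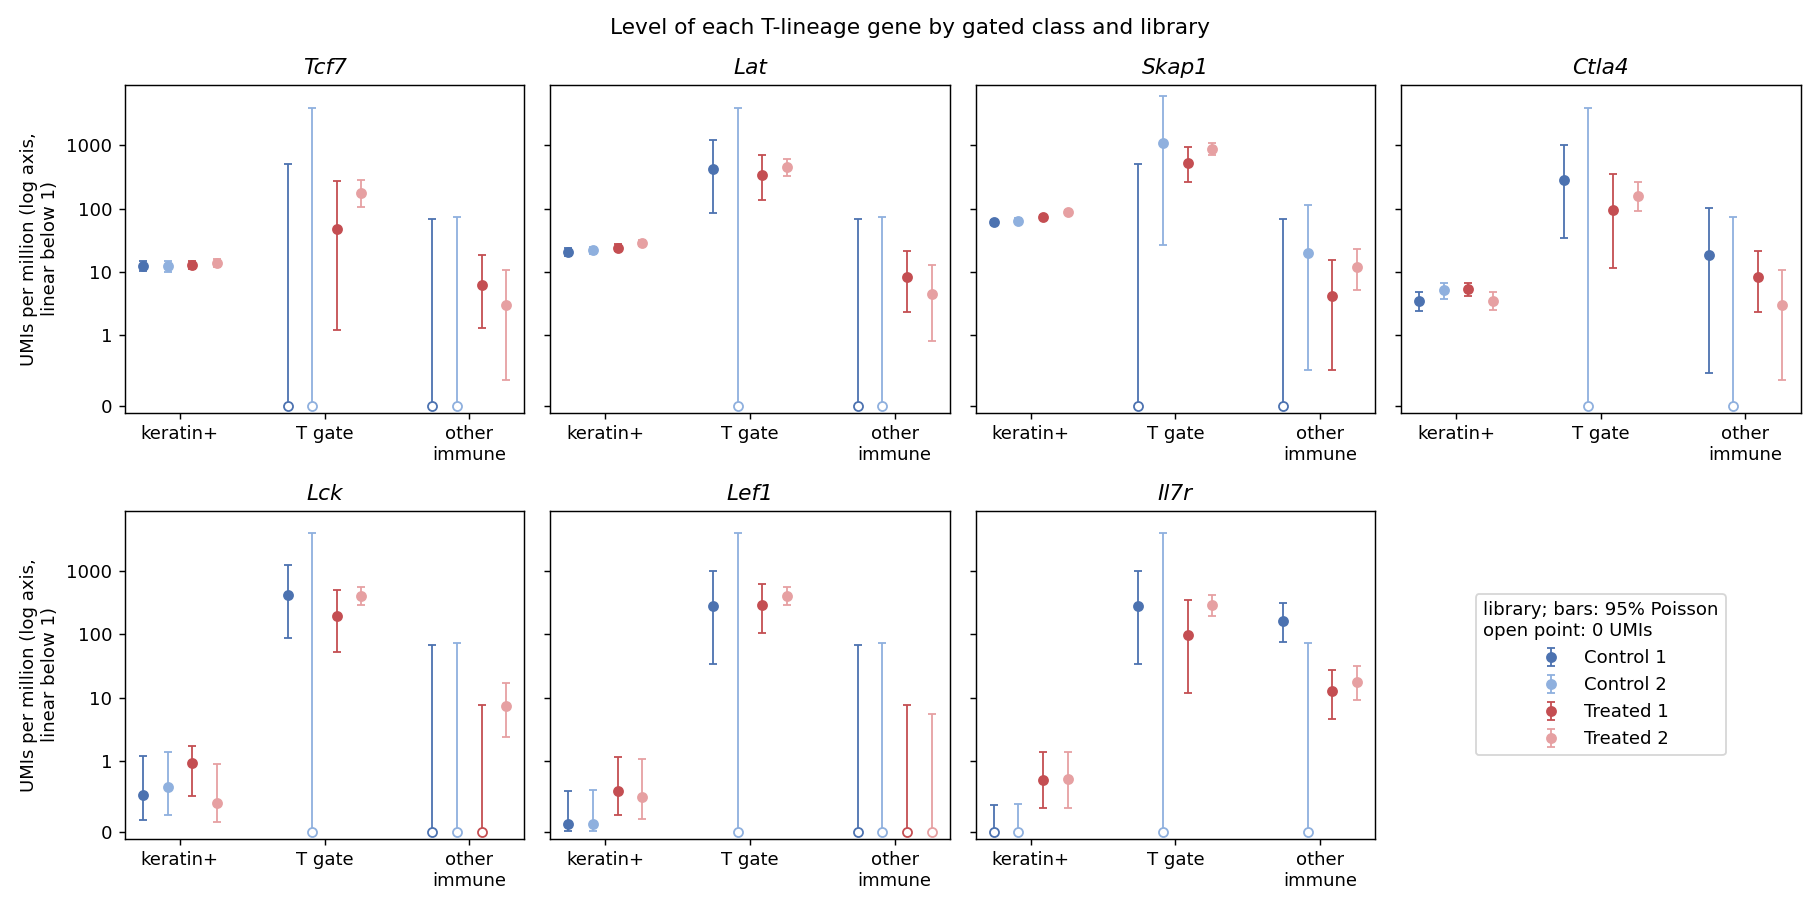
Level of each gene in CPM (log axis, linear below 1) in keratin-positive tumour cells, T cells and other immune cells, 1 point per library, with 95% Poisson intervals that cover counting error only and open points for 0 UMIs. Tcf7, Lat, Skap1 and Ctla4 are above 1 CPM in the tumour cells of all 4 libraries, and Lck, Lef1 and Il7r are below it.

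Both controls together held 11 T cells and both treated libraries 110. The 6 T receptor genes together had 15 UMIs in the tumour cells of Control 1 and 2 in those of Control 2, against 104 in Treated 1 and 53 in Treated 2. Skap1 alone had 617 UMIs in the tumour cells of Control 2, where the T receptor genes had 2. The ratio of each member to the T receptor genes in T cells was set beside the tumour cells of the same treated library, as a description only, since the members had been selected on their UMIs in tumour cells and the T cells on these receptor genes, which lowers the ratio. In Treated 2 that ratio gives 1.83 UMIs for Tcf7, 4.57 for Lat, 9.04 for Skap1 and 1.62 for Ctla4. The counts were 93.6, 75.7, 119 and 26.5 times as large. For Lck the ratio gives 4.16 UMIs where 5 were counted, for Lef1 4.16 where 6 were counted, and for Il7r 2.94 where 9 were counted. In Treated 1 the counts were 129 times the ratio for Tcf7, 34.6 for Lat, 66.4 for Skap1 and 26.7 for Ctla4, against 2.42 for Lck, 0.942 for Lef1 and 3.63 for Il7r. These ratios rest on few UMIs, in Treated 1 on a single Tcf7 UMI in T cells. With 10 T genes outside the gate as the reference, a choice made after the data were seen, the counts of Treated 2 were 93.5 times the ratio for Tcf7 and 119 for Skap1, and those of Treated 1 108 times for Tcf7 and 0.787 for Lef1.

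**Figure D2:**
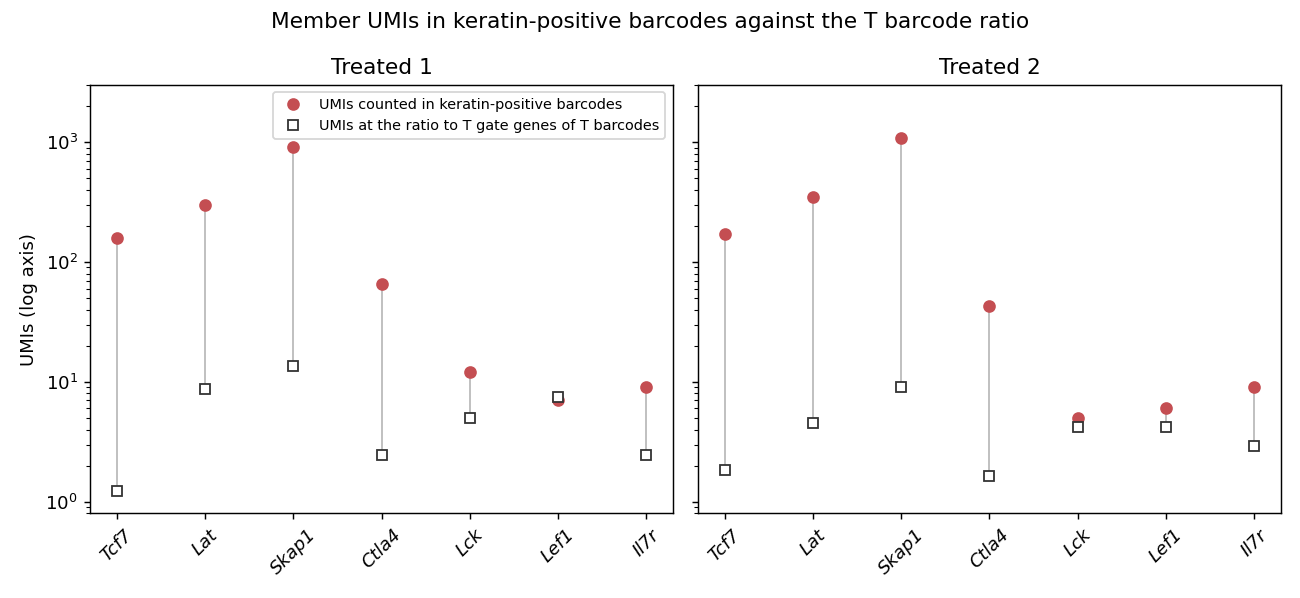
UMIs of each gene counted in the keratin-positive cells of Treated 1 and Treated 2 (filled points) and the UMIs that the gene's ratio to the 6 T receptor genes in T cells of the same library gives (open squares), on a log axis. The points of Tcf7, Lat, Skap1 and Ctla4 lie at least 26.5 times above their squares, and those of Lck, Lef1 and Il7r within 3.63 times.

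Restricted to barcodes with 0 UMIs of the T receptor genes, the mean level over the 4 libraries was 13.004 CPM for Tcf7 in place of 13.002, 23.5 for Lat in place of 23.9, 72.04 for Skap1 in place of 72.13 and 4.41 for Ctla4 in place of 4.40. Those 4 genes changed little without the barcodes that held T receptor UMIs. These were few, since 835 of 845, 526 of 528, 1201 of 1256 and 558 of 582 barcodes remained in library order. A barcode with 0 UMIs of these sparse genes can still hold T cell RNA, and its part in the levels was not tested. The mean of Lck was 0.480 in place of 0.635, that of Lef1 0.242 in place of 0.318 and that of Il7r 0.151 in place of 0.369. Leaving out every barcode past an immune gate kept the 4 genes above 1 CPM in every library as well, with 70.3 CPM for Skap1.

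At the edge of the keratin gate, barcodes with 3 to 4 keratin UMIs, just outside, and with 5 to 9, just inside, were few. In Treated 1, Skap1 stood at 129 CPM in the 37 barcodes just outside and at 106 in the 90 just inside, and Tcf7 at 17.2 and 8.69. In the other libraries the edges held 5 to 21 barcodes, and Skap1 was at 0 outside against 114 inside in Control 1, 53.8 against 58.1 in Control 2 and 679 against 133 in Treated 2, on at most 11 UMIs each. Skap1 was also present outside the gates, with 145 CPM in the 136 ungated barcodes of Treated 1 and 233 in the 73 of Treated 2. In the barcodes that the filters removed from Control 2, most of them for a high mitochondrial share, it had 15 UMIs, or 210 CPM, while Control 1 had 56.7 CPM there, Treated 1 24.6 and Treated 2 6.59.

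The next question was whether the tumour cells of SP11-treated mice carried these genes at another level than those of controls. The contrast was not used to choose the genes, so it was tested, with UMIs summed per library, edgeR's quasi-likelihood test and Benjamini-Hochberg adjustment over all 11588 genes that passed the low-count filter. Among all genes, 210 were higher (1.81%) and 58 lower (0.501%) in treated tumours. Of the 7 members 4 passed the filter and 0 were called, with 1691 genes over the whole table at an unadjusted p under 0.05. The higher count fell to 65 without the tumour barcodes past an immune gate and ran from 69 without Control 2 to 345 without Treated 2, with 0 members called each time.

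Skap1 averaged 63.1 ± 2.78 CPM in controls and 81.1 ± 10.7 in treated tumours (SD, n = 2 each). Its log2 fold change was 0.23 (SE 0.12, 95% interval −0.03 to 0.49, edgeR adjusted p = 0.397). Lat averaged 21.3 ± 0.858 and 26.5 ± 2.91 CPM (SD, n = 2 each), a log2 fold change of 0.18 (SE 0.14, 95% interval −0.11 to 0.47, edgeR adjusted p = 0.581). Both adaptors lay above the controls in 2 of 2 treated libraries, and neither difference passed the test.

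Tcf7 averaged 12.4 ± 0.141 CPM in controls and 13.6 ± 0.761 in treated tumours (SD, n = 2 each), and its log2 fold change after normalisation was −0.00 (SE 0.16, 95% interval −0.34 to 0.34, edgeR adjusted p = 0.993). Ctla4 averaged 4.35 ± 1.16 and 4.46 ± 1.29 CPM (SD, n = 2 each), with a log2 fold change of −0.08 (SE 0.29, 95% interval −0.69 to 0.53, edgeR adjusted p = 0.928). For Ctla4 the interval spans changes in either direction, so a modest difference was not detectable at this depth. With cells thinned to 5000 UMIs the log2 fold change was 0.21 for Tcf7 and 0.41 for Ctla4, neither of them called. Lck, Lef1 and Il7r were too low for the filter. When all 19705 genes with at least 1 UMI were tested, 0 of the 7 members were called, and the adjusted p of Il7r was 0.073.

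Because the share of cells with a UMI rises with depth, each tumour cell was thinned to 5000 UMIs, and the shallower ones, 46, 17, 105 and 7 in library order, were left out. A Tcf7 UMI was then seen in 6.13% and 4.31% of the control cells and in 7.04% and 6.61% of the treated cells. For Lat the shares were 10.1%, 11.2%, 11.5% and 13.04%, and for Skap1 23.7%, 24.3%, 29.8% and 35.5%. For Ctla4 they were 1.502%, 2.54%, 2.78% and 2.78%. In all 4 genes the treated libraries were both above the controls at this depth, although the 95% intervals of Control 2 and Treated 1 overlapped for each of them.

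With 2 against 2 libraries, the exact two-sided permutation test cannot go below p = 0.33. That is the value it gave for Tcf7, Lat, Skap1, Ctla4, Lef1 and Il7r, with an adjusted p of 0.389, and for Lck the exact permutation p was 0.667. The difference was 8.68 percentage points for Skap1, 1.61 for Lat, 1.60 for Tcf7 and 0.758 for Ctla4. In cells with 0 UMIs of the T receptor genes it was 4.52 for Skap1. Without Control 1 it was 2.52 for Tcf7 and 0.237 for Ctla4, without Control 2 0.690 for Tcf7 and 1.28 for Ctla4, and without Treated 2 0.822 for Lat. Lck had a UMI in 0.250%, 0.587%, 0.521% and 0.174% of the cells. Lef1 and Il7r were at 0 of 799 and 0 of 511 cells in the controls, which allows shares of up to 0.375% and 0.587%. They reached 0.261% and 0.174% for Lef1 and 0.261% and 0.348% for Il7r in the treated libraries, all below the limit of Control 2. The order of the libraries depended on the thinning. Both treated libraries lay above both controls in 6 of 7 members at 5000 UMIs. Of these, Lef1 rested on 3 and 1 treated cells and Il7r on 3 and 2. At 2000 UMIs the order held in 2 members, Lat and Skap1, and the Tcf7 difference turned to −0.0838 percentage points. In cells with 0 UMIs of the T receptor genes the order held in 4 members and was lost for Ctla4, with 2.16% in Control 2 and 1.81% in Treated 2. Without thinning, the count was also 2, but for other members, Lef1 and Il7r, and Skap1 ran from 45.9% in Treated 1 to 76.3% in Treated 2. How many of all genes kept this order was not counted, so these counts are not a result about the members.

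**Figure D3:**
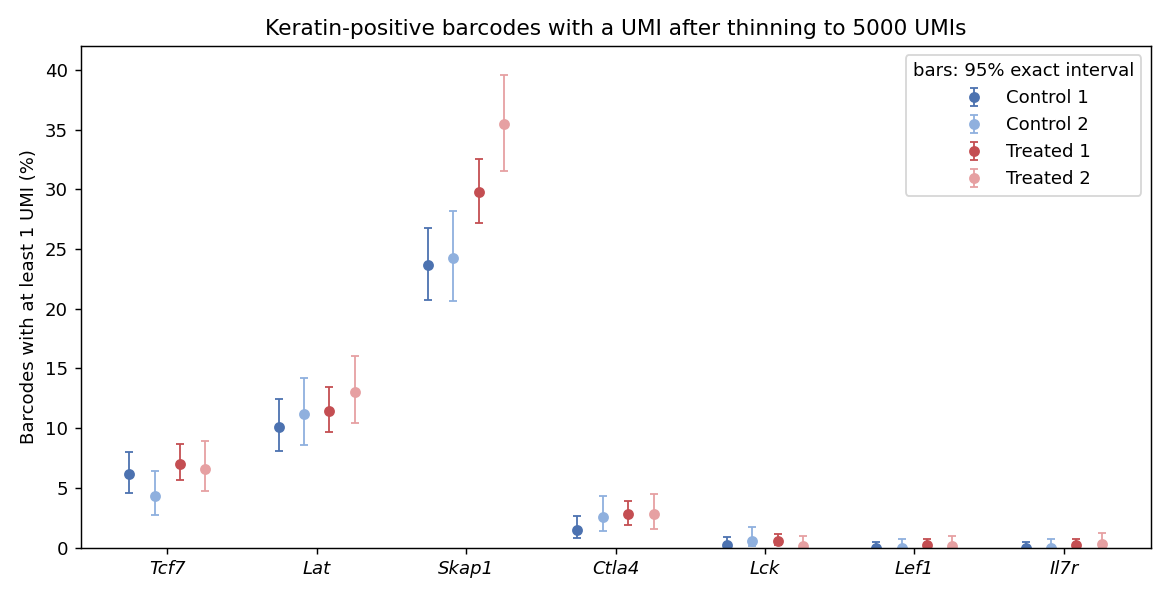
Share of keratin-positive tumour cells with at least 1 UMI of each gene after every cell was thinned to 5000 UMIs, 1 point per library with its 95% exact interval for counting error. The shares of Skap1 run from 23.7% in Control 1 to 35.5% in Treated 2, and those of Lck, Lef1 and Il7r stay under 1%.

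Thinned to 500 UMIs, a depth that immune cells reach, a Skap1 UMI was found in 2.96%, 2.08%, 3.26% and 3.44% of tumour cells. In macrophages, in which T cell adaptors serve as a reference for free RNA, the shares were 0% of 29 and 0% of 17 cells in the controls, 0.431% in Treated 1 and 0.704% in Treated 2. In B cells of the treated libraries they were 0.662% and 0.719%. Lat was in 1.18%, 0.947%, 1.83% and 2.06% of tumour cells and in 0.862% and 0% of treated macrophages. For Tcf7 and Ctla4 the tumour shares at that depth were at most 0.637% and 0.239%. Macrophages of Treated 1 had higher shares, 0.862% for each gene on 2 cells, and B cells of Treated 2 had 0.719% for Tcf7 on 1 cell. Control macrophages had 0% for both genes. These counts are too few to place either gene above or below background at that depth. Summed over cells, Ctla4 was higher in other immune than in tumour cells of Control 1, on 1 UMI, and Treated 1, on 4. It was not in Control 2, on 0 UMIs, or Treated 2. Summed Tcf7 was lower in other immune than in tumour cells of every library, on 0 UMIs in the controls.

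Within the tumour cells of 1 library, the UMIs of the 4 genes fell almost independently of each other. Over the 6 gene pairs in 4 libraries, the correlation of thinned counts across cells ran from −0.07 to 0.14, a description over cells that share a library. Most cells held none or 1 of the 4 genes after thinning. In Control 1, 63.1% of the cells had none, 32.3% had 1 and 4.51% had 2, and in Treated 2 these shares were 50.3%, 41.6% and 7.65%. At 5000 UMIs, the variance of the Skap1 count over its mean was 1.11 in Control 1 and 0.976 in Treated 2, where 1 is the value for UMIs that fall at random over equal cells.

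Tumour cells high in mitotic genes, called mitotic cells here, were then compared with those low in them. These are ranges of a score, not cell types, and the cells between them were left out. In each library the tumour cells were split into 3 equal parts by their content of 20 mitotic genes, and the highest part was compared with the lowest, with the library as a block in edgeR. Of 9762 genes tested, 1137 were higher (11.6%) and 1276 lower (13.1%) in the mitotic cells. Of the 4 members tested, 1 was called, Skap1. Read against the 11.6% of all genes that were called higher, 1 of 4 is not a result about the members as a group. Mitotic cells were also deeper, with a median of 13367 against 9239 UMIs in Control 1, and the part of depth in the result was not tested beyond the thinned sums given next.

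Skap1 went from 59.8 to 64.4 CPM and from 57.0 to 65.9 CPM in the controls, and from 62.9 to 81.7 and from 81.5 to 96.4 in the treated libraries. It was higher in the mitotic cells of 4 of 4 libraries, with a log2 fold change of 0.18 (SE 0.07, 95% interval 0.04 to 0.32, edgeR adjusted p = 0.0485). The call was at the threshold. It was lost without any 1 library (log2 fold change 0.14 without Treated 1 to 0.21 without Control 1, edgeR adjusted p 0.0588 to 0.230), in DESeq2 (adjusted p = 0.552), and with cells thinned to 5000 UMIs (0.30, edgeR adjusted p = 0.0599).

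Lat had a log2 fold change of −0.22 in mitotic cells (SE 0.12, edgeR adjusted p = 0.183) and was lower in 3 of 4 libraries, from 29.5 to 22.8 CPM in Treated 1 but from 15.9 to 19.3 in Control 1. Tcf7 was higher in the mitotic cells of both controls, 14.4 against 11.4 and 13.8 against 10.5 CPM, and lower in those of both treated libraries, 11.5 against 13.4 and 12.7 against 15.1. The difference of the 2 effects did not pass the test of the interaction (log2 difference −0.59, SE 0.32, edgeR adjusted p = 0.998). Ctla4 had a log2 fold change of −0.08 (SE 0.26, edgeR adjusted p = 0.863), on 8 to 26 UMIs a part.

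**Figure D4:**
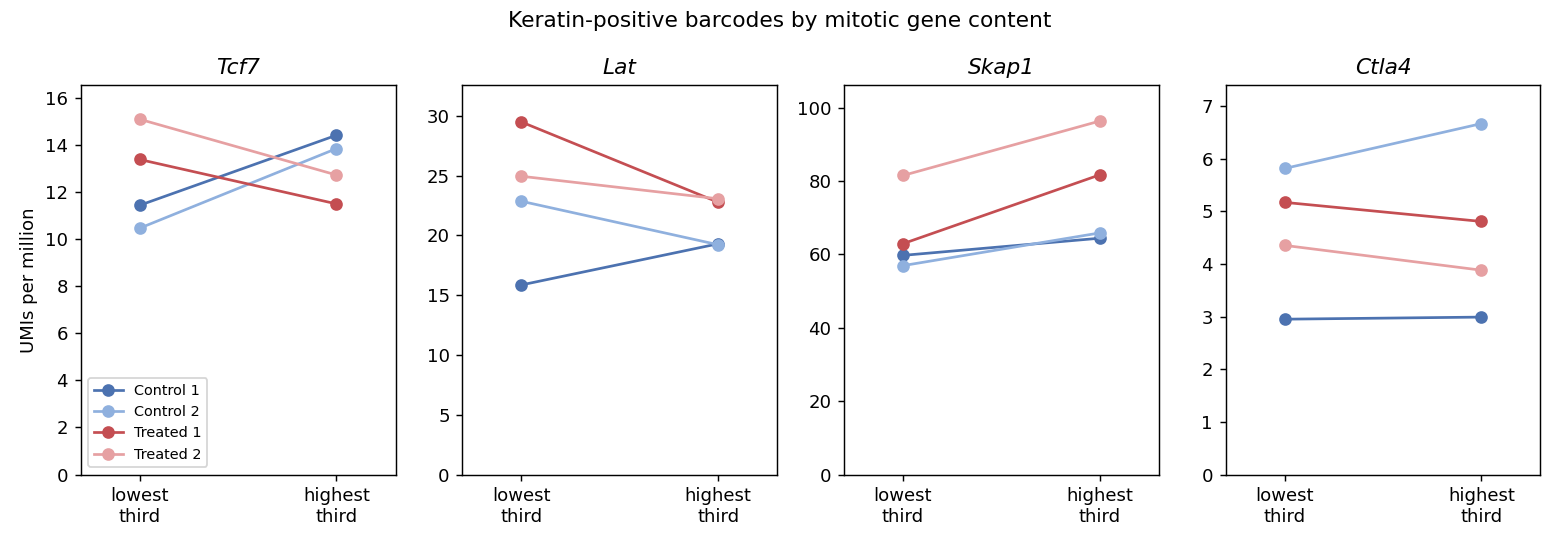
Level in CPM of the 4 genes in the lowest and the highest of 3 equal parts of keratin-positive cells by mitotic gene content, 1 line per library. The Skap1 line climbs in all 4 libraries, and the Tcf7 line climbs in both controls and descends in both treated libraries.

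Other genes of the pathways were read from lists of T cell identity, receptor signalling, T cell transcription factors, T cell receptors and ligands, and WNT partners of the TCF/LEF factors. Of 15 identity genes, 14 were under 1 CPM in the tumour cells of both controls. The exception was Ccl5, a chemokine of cytotoxic T cells that other cells also make, at 8.60 in Control 1 and 0.422 in Control 2. Zap70, the kinase that follows Lck, was at 0 in both controls, 0.0814 CPM in Treated 1 and 0 in Treated 2. Of 22 signalling genes, 14 were under 1 CPM in both controls. Only Csk, the kinase that holds Lck inactive and that many cell types express, reached 10 CPM in both, at 24.6 and 19.1. That cut is higher than the 1 CPM used for the members, which Fyb, Pag1, Cblb, Plcg1 and Ubash3a also passed in both controls.

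Of 22 genes in the list of T cell transcription factors, which also holds the receptor assembly genes Ptcra, Rag1 and Rag2, 7 reached 10 CPM in both controls. Runx1, a factor of blood cells, was at 67.8 and 87.4 CPM, Id3, an inhibitor of E proteins, at 164 and 155, and the T-box factor Eomes, which is known from cytotoxic cells and from trophoblast, at 22.8 and 23.2. Klf2 was at 25.3 and 34.9, Ets1 at 20.8 and 25.0 and Foxo1 at 11.7 and 12.2. Ptcra, which encodes the alpha chain of the pre-T cell receptor, was at 10.1 and 22.9 CPM, where Trac, the chain that replaces it, was at 0.415 and 0.106. Rag1 and Rag2, the recombinase that cuts receptor genes, were at 0 in all 4 libraries.

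Of 23 receptors, ligands and their kinases, Jak1, which serves many cytokine receptors, was at 19.9 and 20.2 CPM in the controls. Tslp, an epithelial cytokine whose receptor uses the Il7r chain, was at 82.3 and 71.96, while its partner chain Crlf2 was at 12.9 and 9.81 and Il7r itself at 0. The ligands of Ctla4, Cd80 and Cd86, were under 1 CPM in both controls. Of 17 WNT genes, beta-catenin (Ctnnb1) was at 15.4 and 17.5 CPM and its destruction complex members Apc and Gsk3b were also past 10 in both controls. Axin2, a widely used target of the pathway, was at 0 in both controls, as were the other TCF genes Tcf7l1 and Tcf7l2. Nkd1 and Znrf3 of this list were at 0 as well, but Sp5 was at 1.14 and 1.79 CPM. Rnf43 was at 0.518 and 1.27 and Notum at 0.622 and 0.317.

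**Figure D5:**
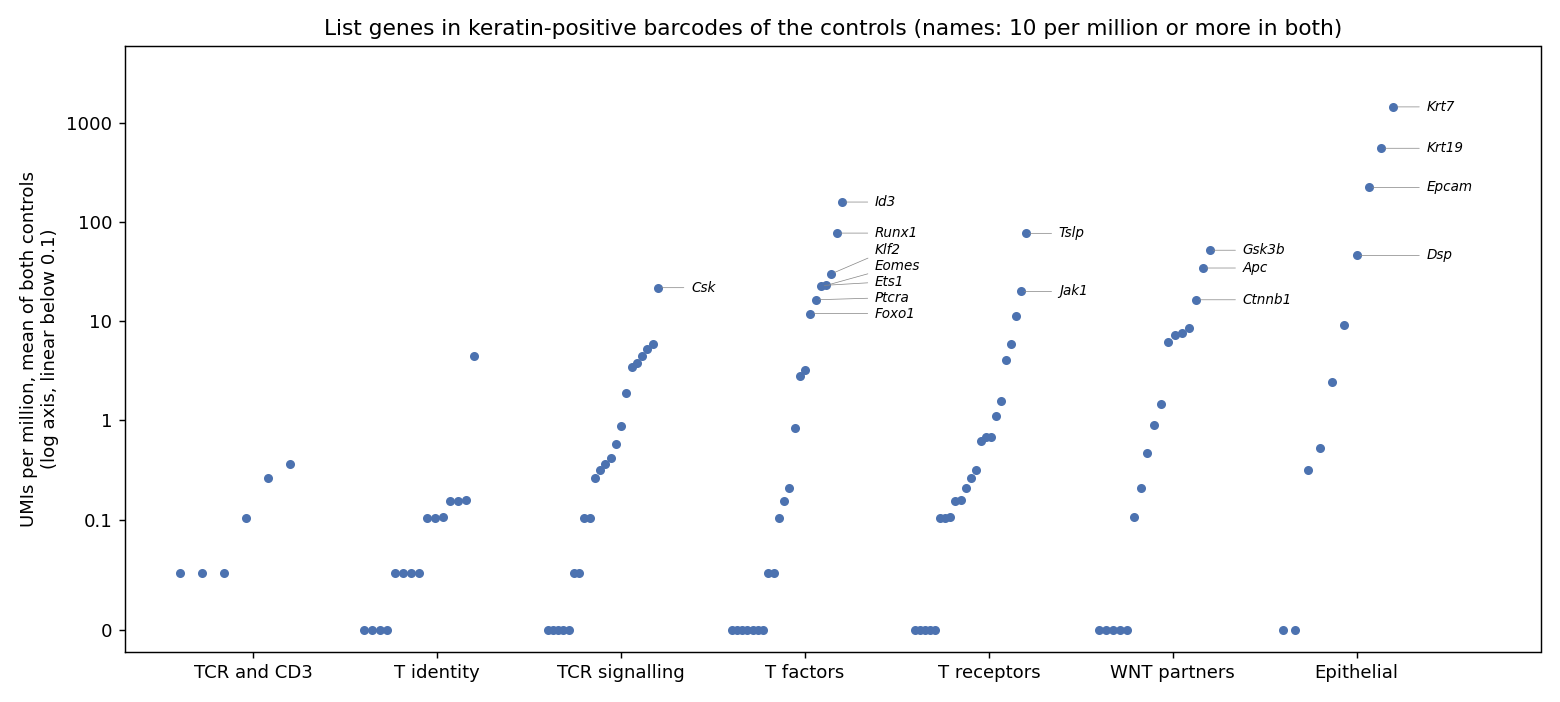
Mean level over both controls, in CPM on a log axis that is linear below 0.1, of each gene of 7 lists in keratin-positive tumour cells, with names where both controls reach 10 CPM. The 6 T receptor genes all lie under 1, while 4 of 10 epithelial genes, among them Krt7, and 7 of 22 genes of the transcription factor list, among them Id3 and Runx1, are named.

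Between treated and control tumours, list genes that passed the edgeR test included genes of white blood cells. Ptprc (CD45), the general leukocyte phosphatase, rose by a log2 fold change of 3.99 (SE 0.45, edgeR adjusted p = 7.4e-05) and Cd2, an adhesion molecule of T cells, by 3.78 (SE 0.68, edgeR adjusted p = 0.00453). Ikzf1, a lymphoid factor, had 0 UMIs in the control tumours and 42 in the treated ones, or 10.97 times the level of 3 counts over both controls. In the same cells the B cell genes summed to 0.726 and 1.37 CPM in the controls and to 47.4 and 25.4 in the treated libraries, and the macrophage genes to 9.43 and 10.9 against 113 and 35.0. The part of these cells' RNA in the differences was not tested for single genes. No list gene was called lower in treated tumours, and in the signalling list 1 of 11 tested genes was called higher. The list median was 0.48 beside −0.00 over all genes. List genes near 0 in both controls could pass the low-count filter only through the treated libraries. Examples are Ptprc at 0.518 and 0.211 CPM, Fyn at 0.311 and 0.211, and Ikzf1 at 0. The list counts and median are therefore tilted upward and are given as a description only.

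From the lowest to the highest part by mitotic genes, Tslp fell by 0.85 on the log2 scale (SE 0.07, edgeR adjusted p = 1.9e-13). Ccl5 fell by 1.11 (SE 0.20, edgeR adjusted p = 3.8e-05). Gata3, a factor of T helper cells and of several epithelia, fell by 0.86 (SE 0.30, edgeR adjusted p = 0.0264). Klf2, a quiescence factor, fell by 0.32 (SE 0.10, edgeR adjusted p = 0.0126). Id3 rose by 0.15 (SE 0.05, edgeR adjusted p = 0.0287) and Gsk3b by 0.25 (SE 0.08, edgeR adjusted p = 0.0164). Of 9 tested genes of the transcription factor list, 1 was thus higher and 2 lower, with a list median of −0.04 beside −0.01 over all genes.

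Genes whose levels ran most like each member were taken over 15 sums of a library and a class with at least 10 barcodes, by Pearson's r of log2(CPM + 1), as a description over sums that share libraries and depth. Lef1, Lck and Il7r had themselves fewer UMIs over these sums than the 100 asked of the other genes. Lef1 ran most like Trbc1 (r = 0.98) and Trbc2 (r = 0.97), the constant chains of the T cell receptor, and Lck most like Nkg7 (r = 0.97), a gene of cytotoxic cells, and Trbc2 (r = 0.96). For Ctla4 the first gene was Cd3d (r = 0.88). For Tcf7 it was Klhdc1 (r = 0.94), for Lat Mllt3 (r = 0.94) and for Skap1 Abraxas1 (r = 0.90), and none of their first 3 was a T receptor gene. Il7r ran most like Tmem30a (r = 0.87) and Ccl5 (r = 0.84).

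The 4 matrices held 977, 595, 2277 and 1483 barcodes with 9646197 to 13632163 UMIs each, and 60 to 359 barcode sequences occurred in both libraries of a pair. Among shared barcodes, the share that was keratin-positive in both libraries was close to the product of the single shares, for example 45.0% and 46.6% between Control 1 and Treated 1. The paper names 2 independent sets of samples, and its supplement calls them biological replicates. Whether each library of a group came from a separate animal is not stated, so p-values measure only the spread between these samples. Hemoglobin RNA made up 10605 and 4735 CPM of the tumour cells' UMIs in Treated 1 and Treated 2 and 267 and 178 CPM in the controls, and its part in the members' levels was not tested.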

How the data were processed

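Single-cell suspensions of DLA tumours were run on the 10x Genomics 3′ platform. Per the labels and the file headers, the deposited values are raw counts of UMIs, made by the authors with Cell Ranger 7.1.0 on mm10 and not normalised, in 1 matrix per library. The paper's text names hg38, and whether intronic reads were counted is not given in the sources used here. Of the columns of per-sample values, 0 were left unused.

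Barcodes with at least 200 genes and at most 10% mitochondrial UMIs were kept (916 and 566 in the controls, 1831 and 1091 in the treated libraries). Doublets were neither called nor removed, since the study's methods name no such step. Keratin-positive tumour cells had at least 5 UMIs of Krt8 and Krt18. T cells had at least 2 UMIs of the 6 T receptor genes, and other immune cells at least 3 UMIs of a B cell, macrophage, neutrophil or dendritic gate, both with at most 2 keratin UMIs. The members, gates and lists were chosen with earlier results of these data known.

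Counts were summed per library and class and scaled to CPM. Treated against control, and the highest against the lowest of 3 parts by mitotic genes with the library as a block, were tested with edgeR 4.0.16 (TMM, filterByExpr, quasi-likelihood, adjusted p under 0.05) in R 4.3.3. DESeq2 1.42.0 was an alternative. The study's own Wilcoxon test over cells was not used, since cells of 1 library are not replicates. Exact intervals at 95% and permutation tests came from scipy 1.17.1. A count of 0 allows up to 3 counts, and intervals and limits cover counting error only.

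Named beside the members were list genes at 10 CPM or more in both controls, the T receptor genes, list genes past a test, and the 3 genes most like each member among those with at least 100 UMIs. Further genes named for contrast (Zap70, Fyb, Pag1, Cblb, Plcg1, Ubash3a, Rag1, Rag2, Crlf2, Cd80, Cd86, Axin2, Tcf7l1, Tcf7l2, Nkd1, Znrf3, Sp5, Rnf43, Notum) were chosen after their values were seen. A list gene past a test is not reported here. Of the members, 6 had a RefSeq promoter entry, and Skap1 did not. On simulated counts of the treatment comparison, edgeR recovered 94.5% of 200 genes changed by a log2 of 1. It made 6 false calls among 11588 genes. In the mitotic comparison it recovered 100%, with 10 false calls among 9762 genes. With 0 genes changed, there were 4 false calls in the treatment comparison and 0 in the mitotic comparison. The changed genes were drawn from well-counted genes only, so the recovery does not cover members with few UMIs or smaller changes. The alternatives were other gates, filters, thinning, normalisation, no low-count filter, the replicate number as a block, and each library left out.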

Additional observations from a re-analysis of the deposited data

How the results depend on the processing

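Tcf7, Lat, Skap1 and Ctla4 were at 1 CPM or more in the tumour cells of every library under each gate tried, and 0 members were called between treated and control tumours under every alternative. The counts of called genes did move. Against 210 higher and 58 lower genes in the treatment comparison, DESeq2 gave 104 higher, thinning to 5000 UMIs 86 higher, leaving out barcodes past an immune gate 65 higher, and leaving out 1 library 69 to 345 higher and 9 to 106 lower. The higher count was 69 without Control 2, 129 without Control 1 and 345 without Treated 2, and the lower count was 9 without Control 2 and 106 without Treated 1. With the replicate number as a block, 654 genes were higher and 384 lower. The labels give only numbers, the correlation of the paired deviations was 0.127 over 11588 genes with 2 pairs, and the samples were not treated as paired. The Tcf7 log2 fold change, −0.00, changed sign to 0.00156 with at least 20 keratin UMIs, 0.00664 with no low-count filter, 0.21 with thinning, and 0.0152 without barcodes past an immune gate, and ran from −0.0372 to 0.0265 with 1 library left out. Ctla4 changed sign to 0.00288 with at least 20 keratin UMIs and 0.41 with thinning, and ran from −0.47 to 0.24 with 1 library left out.

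Against 1137 higher and 1276 lower genes in the mitotic comparison, DESeq2 gave 426 and 546, no library block 434 and 165, and thinning 542 and 608. The number of members called, 1, fell to 0 in DESeq2, with no library block (Skap1 log2 fold change 0.17, edgeR adjusted p = 0.481), with thinning, and to 0 with any 1 library left out. With no low-count filter Skap1 kept its call (edgeR adjusted p = 0.0465). The Tcf7 log2 fold change ran from −0.132 to 0.063 with 1 library left out. Both treated libraries were above both controls in the share of thinned cells for 6 of 7 members at 5000 UMIs. This held for 4 in cells with 0 T receptor UMIs, for 2 at 2000 UMIs (Lat and Skap1) and for 2 with no thinning (Lef1 and Il7r). The share of all genes in this order was not counted. The Tcf7 difference turned to −0.0838 and the Lck difference to 0.0658 percentage points at 2000 UMIs, and the Lck difference ran from −0.245 to 0.103 with 1 library left out. The cause was not tested for any of these changes. Members under 1 CPM are limited by depth.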
